A study of Mus musculus with 18 samples.

Results

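Colony-stimulating factors are secreted proteins that keep myeloid cells alive and drive their division, and 10 genes of these factors, their receptors and the transcription factors of myeloid cells were followed in the mouse retina. They are the ligands Csf1 and Il34, the receptor genes Csf1r, Csf2ra, Csf2rb, Csf2rb2 and Csf3r, and the transcription factors Spi1, Irf8 and Runx1. They were chosen by gene symbol, and all 10 were found among the 23420 gene symbols counted, Spi1 under its older symbol Sfpi1. Retinal RNA came from 9 wild-type BALB/cJ mice of 8 to 10 weeks, an albino strain with light-sensitive photoreceptors. The 3 naïve mice received neither light nor treatment. The other 6 mice were exposed to 15000 lux for 1 h and their retinas were taken 4 days later. Of these, 3 received daily intraperitoneal injections of DMSO as the vehicle, and 3 received TD139, an inhibitor of the sugar-binding protein galectin-3, at 15 mg/kg in DMSO. Injections had started 1 day before the light. The naïve mice were not injected, so the effects of light and of the vehicle cannot be told apart against them, whereas both light-exposed groups share the light and the DMSO.

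The receptor encoded by Csf1r is a tyrosine kinase that microglia, the resident macrophages of the retina, depend on for survival. It has a pair of ligands, CSF1 and IL-34, and in the brain and retina IL-34 comes largely from neurons. Receptors for GM-CSF pair an alpha chain (Csf2ra) with the common beta chain (Csf2rb), which also serves the receptors for IL-3 and IL-5, while the mouse-specific paralog Csf2rb2 serves IL-3 alone. Csf3r encodes the receptor for G-CSF, best known from neutrophils. The ETS factor PU.1 (Spi1) is required for the formation of macrophages and microglia and acts together with IRF8 and RUNX1.

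The mice had 26171887 to 30201517 reads counted on genes, each from 2 runs that were summed. All 10 genes passed the filter on low counts, as did 15196 genes in all. Levels are given as CPM, counts scaled to library size after correction for library composition. A count of 3 stands for 0.101 to 0.118 CPM and was taken as the floor of detection, which covers counting error only. The groups were compared with edgeR's quasi-likelihood test, and p-values were adjusted for all tested genes after Benjamini and Hochberg. A gene is described as changed when its adjusted p-value was under 0.05, and the study's cut-off of 2 on the log2 fold change is given in addition. Markers of rods, the main cells of the retina, summed to 68409 to 76713 CPM in naïve, 39262 to 54772 CPM in vehicle-treated and 56357 to 71016 CPM in TD139-treated mice, and of 8 such markers 5 were lower after light with vehicle and 5 higher with TD139 than with vehicle. Markers of Müller glia summed to 4191 to 4841, 5504 to 6216 and 4836 to 5711 CPM, with 4 of 8 higher after light with vehicle and 2 lower with TD139 than with vehicle. After light, 0 of either list were called without naïve mouse 1, naïve mouse 2, vehicle-treated mouse 1 or vehicle-treated mouse 3, and 1 of each without naïve mouse 3. With TD139, 3 rod and 1 Müller glia markers were called without vehicle-treated mouse 3, TD139-treated mouse 2 or TD139-treated mouse 3. Markers of the retinal pigment epithelium, which lies against the photoreceptors, summed to 115 to 265 CPM without light, 221 to 474 CPM with vehicle and 128 to 192 CPM with TD139, so that the light-exposed groups did not overlap. The 7 of them that were tested had a median log2 fold change of −0.83 with TD139 against vehicle, and 2 were called lower. Endothelial markers summed to 175 to 260, 332 to 475 and 225 to 459 CPM, where vehicle-treated mice lay above naïve mice. Most of each sum came from Kdr (176, 335 and 267 CPM on average), and 0 of 6 markers were called higher after light with vehicle. With TD139, 2 of the 6 were called lower than with vehicle. The counts of lower markers in these 2 lists each fell to 0 with the length and GC correction. They also fell to 0 without vehicle-treated mouse 2, TD139-treated mouse 2 or TD139-treated mouse 3, and that of the pigment epithelium also with no filter on low counts. Summed markers of ganglion cells and of red cells overlapped between the groups. Over all tested genes, light with vehicle gave 4.91% higher and 2.89% lower, and TD139 against vehicle gave 17.2% higher and 16.2% lower. The part of these shifts in the levels below was not tested. Lens crystallins reached 9045 CPM in vehicle-treated mouse 2, against 0.243 to 395 CPM in the other mice, and without this mouse 7 of the 8 genes called below between vehicle-treated and naïve mice still passed, all but Csf3r (adjusted p = 0.0528).

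Light with vehicle raised 8 of the 10 genes above naïve mice, against 4.91% of all tested genes that were called higher. These were Csf1, Csf1r, Csf2rb, Csf2rb2, Csf3r, Spi1, Irf8 and Runx1, while Il34 and Csf2ra did not pass the test. The median log2 fold change over the 10 genes was 2.33. Of the 8 genes, 6 also exceeded a log2 fold change of 2, a step taken by 1.24% of tested genes, and Csf1 and Csf1r stayed below it. In all 8 genes the lowest vehicle-treated mouse lay above the highest naïve mouse, which held for 16.7% of tested genes. With TD139, 7 of the 8 genes were lower than in vehicle-treated mice, against 16.2% of tested genes, and Csf3r did not pass the test. In 4 of them, Csf2rb, Csf2rb2, Spi1 and Runx1, the fall also exceeded 2 on the log2 scale, against 1.53% of tested genes. The median over the 10 genes was −1.67, and the mice of both groups did not overlap in 8 genes, against 25.4% of tested genes. Since RNA came from whole retina, fewer cells of a type and less RNA per cell cannot be told apart.

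**Figure D1:**
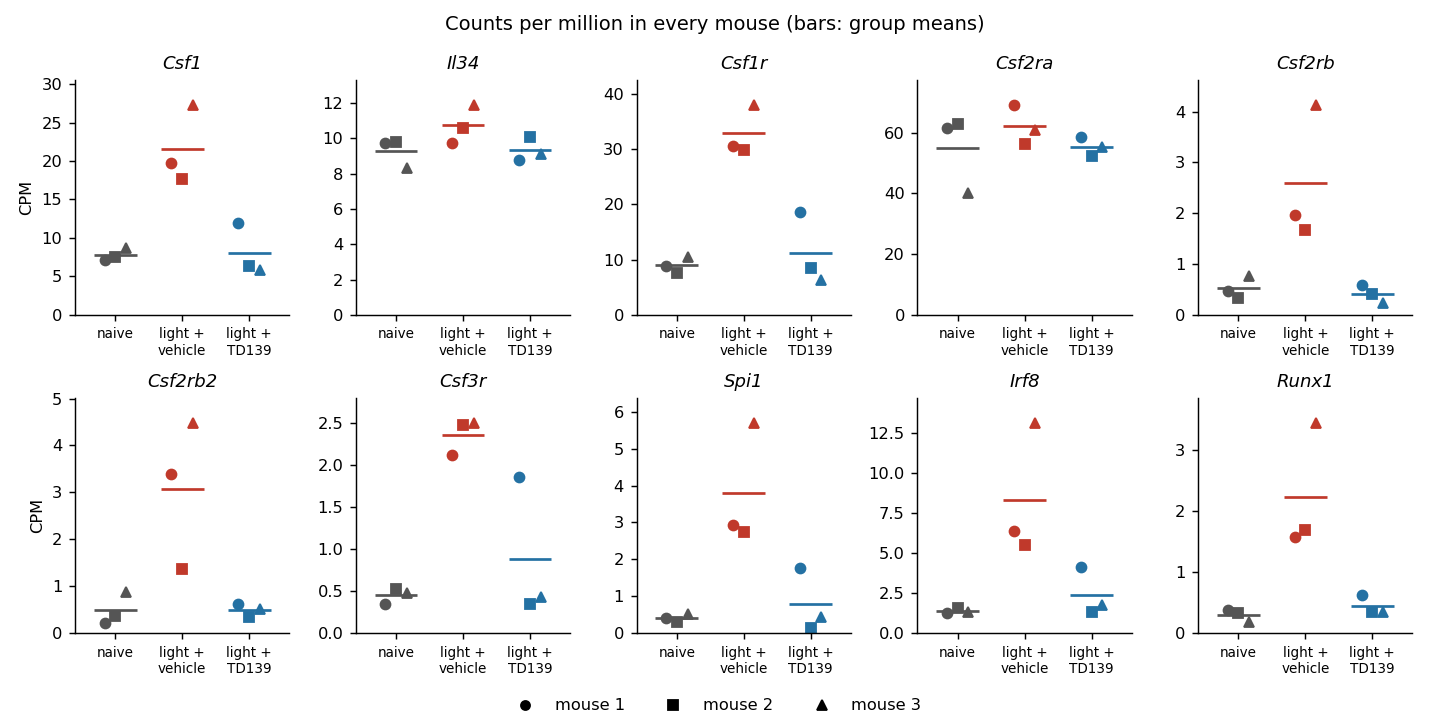
Levels of the 10 genes in CPM on linear axes from 0, with 1 panel per gene, 1 point per mouse (circle, square and triangle for mice 1, 2 and 3) and a bar at each group mean. Vehicle-treated mice lie above all naïve mice in 8 panels, whereas Il34 and Csf2ra lie within overlapping ranges.

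The 2 ligands of the CSF1 receptor behaved differently. Csf1, located at chr3:107741048-107760469 on the minus strand of GRCm38, stood at 7.18, 7.46 and 8.65 CPM in naïve mice. It reached 19.7, 17.7 and 27.3 CPM in vehicle-treated mice and 11.9, 6.4 and 5.77 CPM in TD139-treated mice. All vehicle-treated mice lay above the other 6, and TD139-treated mouse 1 lay between the naïve and the vehicle-treated range. The log2 fold change was 1.47 ± 0.27 (SE, n = 3 per group) between vehicle-treated and naïve mice, with an adjusted p-value of 0.0192 by edgeR. Between TD139-treated and vehicle-treated mice it was −1.43 ± 0.27, with an adjusted p-value of 0.00624 by edgeR.

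Il34, at chr8:110741829-110805924 on the minus strand, had 9.72, 9.79 and 8.35 CPM in naïve mice. In vehicle-treated mice it had 9.76, 10.6 and 11.9 CPM, and in TD139-treated mice 8.75, 10.1 and 9.12 CPM. The ranges of the 3 groups overlapped. The 95% interval of its log2 fold change ran from −0.12 to 0.54 between vehicle-treated and naïve mice and from −0.53 to 0.12 between TD139-treated and vehicle-treated mice, so an increase like that of Csf1 lay outside it. The log2 ratio of Csf1 to Il34, both in CPM, was −0.43, −0.39 and 0.05 in naïve mice. It was 1.01, 0.73 and 1.20 in vehicle-treated mice and 0.44, −0.66 and −0.66 in TD139-treated mice. Each vehicle-treated mouse had a higher ratio than any mouse of the other groups. The differences of 1.24 and −1.27 each had p = 0.1 in an exact two-sided permutation test, the smallest value that 3 against 3 mice allow. Per kilobase of exon, the level of Csf1 was 1.47 ± 0.147 (SD) CPM per kb in naïve and 4.08 ± 0.957 in vehicle-treated mice, and that of Il34 was 4.74 ± 0.414 and 5.49 ± 0.539. Their ranges were apart in naïve mice and overlapped in vehicle-treated mice.

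Csf1r (chr18:61100598-61132149, plus strand) had the highest level per kilobase of the genes that rose, in naïve as in vehicle-treated mice. It had 8.79, 7.61 and 10.4 CPM without light and 30.6, 29.9 and 38 CPM after light with vehicle. The TD139-treated mice had 18.6, 8.42 and 6.36 CPM. Vehicle-treated mice lay above all others, and TD139-treated mouse 1 lay above all naïve mice while the other 2 did not. The fitted log2 changes were 1.88 ± 0.35 (adjusted p = 0.0216) for vehicle-treated against naïve mice and −1.56 ± 0.34 (adjusted p = 0.0107) for TD139-treated against vehicle-treated mice. Of its exon bases, 15.1% overlap those of Hmgxb3 on the other strand, and the counting is not stated to use strand. Hmgxb3 itself had 52 to 69.3 CPM over the 9 mice, with log2 fold changes of −0.14 ± 0.11 (adjusted p = 0.44) and 0.08 ± 0.11 (adjusted p = 0.596) in the same 2 comparisons.

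The chains of the GM-CSF receptor differed from each other. Csf2ra (chr19:61223957-61228429, minus strand) had the most reads of the 10 genes per kilobase in each group, although whether all of them came from this gene cannot be settled from gene counts. It had 61.4, 62.9 and 40.2 CPM in naïve mice, 69.1, 56.2 and 61 CPM in vehicle-treated mice, and 58.5, 52.2 and 55.1 CPM in TD139-treated mice. The 95% interval of its log2 fold change was −0.16 to 0.52 for vehicle-treated against naïve mice and −0.51 to 0.17 for TD139-treated against vehicle-treated mice. The common beta chain Csf2rb (chr15:78325752-78353847, plus strand) was low in naïve mice, with 0.461, 0.339 and 0.769 CPM from 9 to 21 counts. It rose to 1.97, 1.66 and 4.13 CPM in vehicle-treated mice and stood at 0.593, 0.417 and 0.237 CPM with TD139. Vehicle-treated mouse 3 was highest, and no mouse of another group reached the vehicle-treated range. The log2 fold changes were 2.29 ± 0.48 (adjusted p = 0.0246) and −2.62 ± 0.49 (adjusted p = 0.00612). The log2 ratio of Csf2rb to Csf2ra was −7.26 to −5.58 without light, −5.09 to −3.86 with light and vehicle, and −7.48 to −6.46 in TD139-treated mice, with p = 0.1 in the exact two-sided permutation test of vehicle-treated against each other group.

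Csf2rb2 (chr15:78282507-78305721, minus strand), the neighbouring paralog, had 0.23, 0.377 and 0.879 CPM in naïve mice. It had 3.39, 1.38 and 4.47 CPM in vehicle-treated mice and 0.63, 0.348 and 0.513 CPM in TD139-treated mice. The vehicle-treated mice lay above all others, with mouse 2 closest to them. Fitted log2 changes were 2.62 ± 0.54 (adjusted p = 0.0239) and −2.62 ± 0.54 (adjusted p = 0.00732). The values of Csf2rb and Csf2rb2 are uncertain as separate measurements. Their coding sequences in GENCODE were identical at 2503 of 2628 aligned bases (95.2%). Of the 50-base windows of the Csf2rb transcript, 18.4% occur in transcripts of other genes, and Csf2rb2 shares more of them than any other gene. The longest identical coding stretch is 242 bases, at chr15:78348577-78348818 in the last exon of Csf2rb and at chr15:78284630-78284871 in the last exon of Csf2rb2. It is shown because a read of 50 bases within it cannot be assigned to either gene. The next 60 coding bases of each gene follow, in which capitals mark the 2 positions that differ.
Identical stretch of Csf2rb and Csf2rb2: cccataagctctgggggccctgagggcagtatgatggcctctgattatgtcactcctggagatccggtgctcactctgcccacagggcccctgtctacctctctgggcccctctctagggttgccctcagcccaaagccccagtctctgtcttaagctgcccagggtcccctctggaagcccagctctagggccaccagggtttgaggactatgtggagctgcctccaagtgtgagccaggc
Csf2rb, chr15:78348819-78348878, plus strand: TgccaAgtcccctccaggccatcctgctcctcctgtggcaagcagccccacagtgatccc
Csf2rb2, chr15:78284570-78284629, minus strand: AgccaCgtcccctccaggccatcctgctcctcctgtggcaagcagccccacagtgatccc

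Csf3r (chr4:126024550-126044440, plus strand), the G-CSF receptor, had 0.346, 0.527 and 0.476 CPM in naïve mice, 2.11, 2.47 and 2.49 CPM in vehicle-treated mice, and 1.85, 0.348 and 0.434 CPM in TD139-treated mice. The vehicle-treated mice were close together and above all others, and TD139-treated mouse 1 lay nearer to them than to its own group. The log2 fold change was 2.38 ± 0.56 (adjusted p = 0.0318) for vehicle-treated against naïve mice. With TD139 it was −1.42 ± 0.53 (adjusted p = 0.0587 by edgeR), and without TD139-treated mouse 1 it was −2.58 (adjusted p = 0.00104 by edgeR). DESeq2 and limma voom called this gene lower with all mice. Of its 50-base windows, 11.5% occur in transcripts of other genes. Neutrophil markers were scarce, as 0 of 10 measured markers passed the filter, and their sum was 0.0384 to 0.33 CPM in naïve, 0.822 to 2.29 CPM in vehicle-treated and 0.079 to 0.259 CPM in TD139-treated mice. Retnlg was at 0 in each mouse and Cxcr2 had 1 count in 1 mouse. The other neutrophil markers did not move together, and those given here were named after their values were seen. Mmp8 had 14, 1 and 8 counts after light with vehicle against 0 in each naïve mouse and 3, 0 and 0 with TD139. S100a8 had 6, 2 and 11 counts in vehicle-treated mice against 0, 0 and 1 in naïve and 4, 0 and 0 in TD139-treated mice, and Ltf reached 60 counts in vehicle-treated mouse 2 and at most 2 elsewhere. S100a9 had 0, 2 and 1 counts in naïve and 1, 0 and 0 in vehicle-treated mice, and Mpo had 1, 0 and 5 against 0, 1 and 2. Their part in the level of Csf3r was not tested.

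Spi1 (chr2:91082390-91115756, plus strand) had the largest log2 fold change of the 10 genes between vehicle-treated and naïve mice. It had 0.422, 0.301 and 0.513 CPM in naïve mice, from 8 to 14 counts, and 2.93, 2.75 and 5.68 CPM in vehicle-treated mice. With TD139 it had 1.78, 0.139 and 0.434 CPM, where mouse 2 had 4 counts. The 3 TD139-treated mice thus spread more widely than the naïve mice, and all stayed below the vehicle-treated mice. The log2 fold changes were 3.18 ± 0.73 (adjusted p = 0.0316) and −2.27 ± 0.68 (adjusted p = 0.0294). The second value was −3.72 without TD139-treated mouse 1. Its call was lost without TD139-treated mouse 2 (−1.76, adjusted p = 0.0688 by edgeR), TD139-treated mouse 3 (−1.99, adjusted p = 0.112) or vehicle-treated mouse 3 (−1.85, adjusted p = 0.0969), with only the groups compared (adjusted p = 0.0619) and with the length and GC correction (−1.86, adjusted p = 0.0583).

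Irf8 (chr8:120736358-120756694, plus strand), which acts as a partner of PU.1, had 1.27, 1.58 and 1.32 CPM in naïve mice. It had 6.36, 5.51 and 13.1 CPM in vehicle-treated mice and 4.15, 1.32 and 1.78 CPM in TD139-treated mice. Vehicle-treated mouse 3 was highest, and TD139-treated mouse 1 came next below the vehicle-treated range. Its log2 fold changes were 2.58 ± 0.46 (adjusted p = 0.0189) and −1.79 ± 0.44 (adjusted p = 0.014). Runx1 (chr16:92601466-92826149, minus strand), a factor of blood and myeloid development, had 0.384, 0.339 and 0.183 CPM in naïve mice, 1.57, 1.69 and 3.43 CPM in vehicle-treated mice, and 0.63, 0.348 and 0.355 CPM in TD139-treated mice. Its vehicle-treated mice lay above all others, while naïve and TD139-treated mice overlapped. The log2 fold changes were 2.87 ± 0.47 (adjusted p = 0.0142) and −2.32 ± 0.45 (adjusted p = 0.00641), and Runx1 had the smallest adjusted p-value of the 10 genes in the first comparison.

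**Figure D2:**
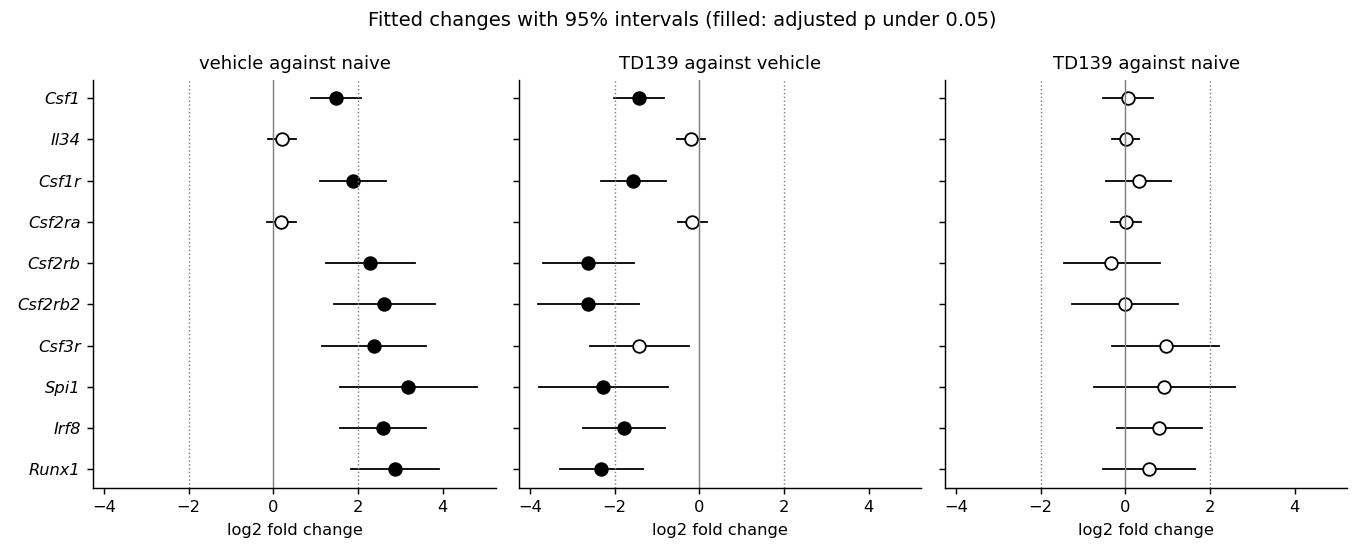
Fitted log2 fold changes of the 10 genes (x axis) with 95% intervals in the 3 comparisons, where filled points have an adjusted p-value under 0.05, the solid line marks 0 and dotted lines mark −2 and 2. In the third panel no point is filled and each interval includes 0.

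When TD139-treated mice were set against naïve mice, 0 of the 10 genes passed the test of edgeR, while 5.10% of tested genes were called in either direction. Of the 10, 0 had an unadjusted p-value under 0.05, against 4492 of the 15196 tested genes. DESeq2 and limma voom also called 0 of the 10. The groups overlapped in all 10 genes, whereas 32.2% of tested genes showed no overlap. The 95% intervals were narrow for Il34 (−0.32 to 0.33) and Csf2ra (−0.33 to 0.36) and wide for Spi1 (−0.75 to 2.58) and Csf3r (−0.31 to 2.22), so differences of those sizes are not excluded. This comparison shares its TD139-treated mice and its naïve mice with the other comparisons.

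Vehicle-treated mouse 3 was the highest of its group in 9 of the 10 genes, and TD139-treated mouse 1 was the highest of its group in 9. The calls between vehicle-treated and naïve mice depended on single mice. Without naïve mouse 2 or without vehicle-treated mouse 3, 0 of the 10 genes passed the adjusted threshold in edgeR, although 8 kept an unadjusted p-value under 0.05, and 1 and 97 genes were called over the whole table. Without naïve mouse 1, naïve mouse 3 or vehicle-treated mouse 1, 1, 3 and 3 of the 10 genes passed. Over the whole table, 90, 239 and 245 genes were called in these fits. The log2 fold changes of the 8 genes still lay between 1.28 and 3.37 in the 5 fits without a naïve mouse, vehicle-treated mouse 1 or vehicle-treated mouse 3. Between TD139-treated and vehicle-treated mice, 4 genes passed without TD139-treated mouse 2 (Csf1, Csf2rb, Csf2rb2 and Runx1), and 5 without TD139-treated mouse 3. Of all tested genes, 1624 and 1917 were called in these 2 fits. Without vehicle-treated mouse 3, 5 genes passed and 2 exceeded the cut-off on the fold change. Without TD139-treated mouse 1, 8 genes passed and 7 exceeded the cut-off. The last 2 fits called 2501 and 5910 of all tested genes.

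Per kilobase of exon, the naïve order was Csf2ra (19.1 ± 4.44 CPM per kb, SD), Il34 (4.74 ± 0.414), Csf1r (1.55 ± 0.24) and Csf1 (1.47 ± 0.147), and the last pair overlapped. Irf8, Spi1, Csf3r, Csf2rb2 and Csf2rb followed between 0.197 and 0.0719 CPM per kb, each overlapping the next, and Runx1 was lowest at 0.0251 ± 0.00876. In vehicle-treated mice Csf1r (5.69 ± 0.777), Il34 (5.49 ± 0.539) and Csf1 (4.08 ± 0.957) followed Csf2ra (21.6 ± 2.28), with each neighbour in this run of 3 overlapping the next. Spi1 came next with 1.41 ± 0.608 CPM per kb, overlapping Irf8. In TD139-treated mice the order of the means of the 10 genes was again that of the naïve mice. There Csf1r overlapped Csf1, and each gene from Irf8 down to Runx1 overlapped the next.

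Markers of microglia moved with these genes. The 12 microglial markers summed to 48.4 to 60 CPM in naïve, 157 to 201 CPM in vehicle-treated and 42.2 to 88.6 CPM in TD139-treated mice, with TD139-treated mouse 1 the highest of its group, and none of them was at 0 in a whole group. Of the 12, 6 rose after light with vehicle and 7 were lower with TD139 than with vehicle, against 4.91% and 16.2% of all tested genes. The 6 became 0 without any one of the naïve mice or without vehicle-treated mouse 3, and 1 without vehicle-treated mouse 1 (edgeR). The 7 became 3 without TD139-treated mouse 2 and 2 without TD139-treated mouse 3. In the 12 other settings 5 to 7 and 5 to 8 were called. Olfml3 had log2 fold changes of 1.89 ± 0.50 (adjusted p = 0.0598) and −1.94 ± 0.50 (adjusted p = 0.0226). The second call was lost in 3 of the 12 other settings and in 2 of the 9 fits with a mouse left out, which gave values down to −1.10. Olfml3 had 725, 2595 and 853 counts in vehicle-treated mice. Vehicle-treated mouse 2, the one with the lens crystallins, was thus highest for Olfml3, as it was for Sall1, named after its values were seen (35, 118 and 25 counts), and for the summed level (157, 201 and 180 CPM in mice 1 to 3). The microglial receptor Trem2 had 3.78 ± 0.75 (adjusted p = 0.0288) and −2.76 ± 0.70 (adjusted p = 0.0212), calls that were lost in 5 and 3 of the 9 fits with a mouse left out. The part of cell number in the changes of the 10 genes was not tested.

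Each gene was therefore also set against the mean log2 CPM of these 12 markers in the same mouse. On this scale Csf1r was 2.41, 2.47 and 3.00 in naïve mice, 2.80, 2.66 and 2.93 after light with vehicle and 2.78, 2.75 and 2.32 in TD139-treated mice. The groups overlapped, and the difference of 0.17 between vehicle-treated and naïve mice had p = 0.5 in the exact two-sided permutation test. For Csf1 the difference was −0.26 (p = 0.5 in the exact test). Spi1 stood at −1.75, −1.89 and −1.15 without light and at −0.55, −0.74 and 0.20 after light with vehicle. These ranges did not overlap, with a difference of 1.24 and p = 0.1 in the exact test, and the TD139-treated mice (−0.55, −2.57 and −1.34) spread over both. Runx1 and Csf3r were also higher without overlap, by 0.87 and 0.53 (each p = 0.1 in the exact test), while Irf8 (0.72), Csf2rb (0.41) and Csf2rb2 (0.78) overlapped. Il34 and Csf2ra were lower relative to the markers in vehicle-treated mice, by −1.49 and −1.50 (each p = 0.1 in the exact test). Over the 10 genes and 3 comparisons 30 such differences were computed, and none can pass a correction with 3 mice per group. The markers themselves rose unequally between vehicle-treated and naïve mice, with log2 fold changes from 0.60 ± 0.40 for Siglech to 3.85 ± 0.85 for Fcrls. Both were named after their values were seen, and the place of a gene against the marker mean depends on the markers chosen.

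**Figure D3:**
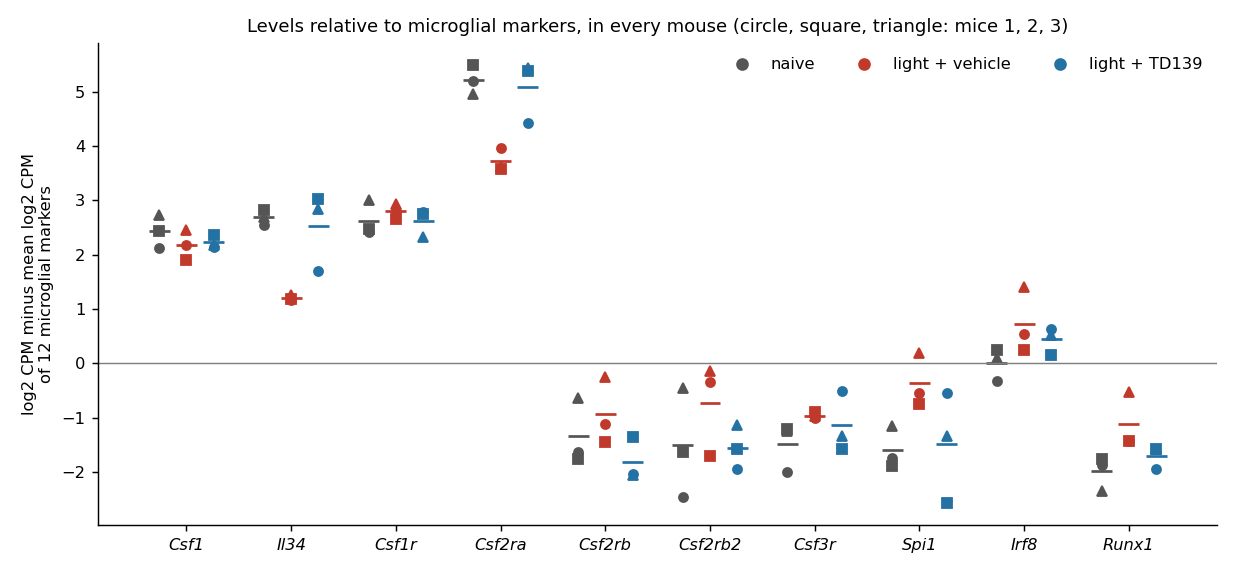
Log2 CPM of each gene minus the mean log2 CPM of 12 microglial markers (y axis) in every mouse, with bars at group means. Csf1r and Csf1 lie at similar heights in the 3 groups, Spi1 and Runx1 lie higher after light with vehicle than without light, and Il34 and Csf2ra lie lower.

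Markers of other blood-derived cells were scarce. Of 12 markers of monocytes and macrophages, 5 passed the filter, and their sum came mostly from Fn1 and Lyve1, which other cells of the eye also express. The 12 summed to 45.5 to 56.4 CPM in naïve, 56.8 to 68.2 CPM after light with vehicle and 52.9 to 66.2 CPM with TD139, where naïve and vehicle-treated mice did not overlap. Among the scarce markers, F13a1 had 0, 0 and 2 counts in naïve, 3, 15 and 8 with vehicle and 2, 1 and 1 with TD139. Mrc1 had 0, 4 and 2, then 4, 18 and 9, then 2, 0 and 0, and both were named after their values were seen. Only Ms4a7 of these was called higher in vehicle-treated mice, with 0, 0 and 2 counts in naïve, 43, 16 and 86 in vehicle-treated and 14, 0 and 1 in TD139-treated mice, and it was chosen after its values were seen. The monocyte receptor gene Ccr2 had 0 counts in each naïve mouse, 4, 9 and 0 in vehicle-treated mice, and 1, 0 and 0 in TD139-treated mice. Other markers of this list moved differently. Ly6c2 had log2 fold changes of 0.22 ± 0.52 and −0.08 ± 0.51, and Vcan 0.83 ± 1.22 and −0.08 ± 1.20. Lyve1 was called higher with TD139 than with vehicle (0.43 ± 0.15, adjusted p = 0.0456 by edgeR), and Ms4a7 was called lower. Plac8 had 74 counts in vehicle-treated mouse 2 and at most 10 elsewhere. Ccr2, Ly6c2 and Plac8 were named after their values were seen. Of 8 dendritic cell markers, 3 passed and 0 changed by edgeR, with Xcr1, Cd209a and Siglecg at 0 in each mouse. Itgax, which microglia and macrophages can also express, had 0, 3 and 5 counts in naïve, 18, 19 and 21 in vehicle-treated and 11, 3 and 0 in TD139-treated mice. Its log2 fold changes were 2.70 ± 0.90 (adjusted p = 0.0848) and −1.94 ± 0.83 (adjusted p = 0.0911), and it was named after its values were seen. Of the markers of T and B lymphocytes, Cd3e, Cd3g and Ms4a1 were at 0 in each mouse. The part of these cells in the results was not tested.

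The other ligands of the family were close to or below the floor. GM-CSF (Csf2) had at most 1 count in a mouse, G-CSF (Csf3) at most 2, and Il3 had 0 in each mouse. Il5 had at most 5 counts, and its receptor chain Il5ra at most 3. Csf2, Csf3 and Il3 transcripts were thus not detectable at this depth, while the receptor genes Csf2rb, Csf2rb2 and Csf3r rose. The IL-3 receptor chain Il3ra had log2 fold changes of 0.71 ± 0.23 (adjusted p = 0.0811) and −0.57 ± 0.23 (adjusted p = 0.0792). Of the related growth factors, Kitl, the ligand of the receptor KIT, rose from 6.47 to 11.9 CPM on average between naïve and vehicle-treated mice (0.87 ± 0.22, adjusted p = 0.0377). With TD139 it stood at 12.5 CPM, which was 0.95 ± 0.22 above naïve mice (adjusted p = 0.0433) and 0.07 ± 0.22 from vehicle-treated mice (adjusted p = 0.818). The Kitl call against naïve mice was lost in 3 of 12 other settings for vehicle-treated and in 5 of 12 for TD139-treated mice, and each was lost in 6 of the 9 fits with a mouse left out. Kit, Flt3 and Flt3l passed in 0 of the 3 comparisons by edgeR, with log2 fold changes between −0.47 and 0.26.

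Of 21 kinases and adaptors downstream of these receptors, 4 were called higher and 0 lower after light with vehicle, where 4.91% of tested genes were called higher and 2.89% lower. With TD139, 7 were lower and 2 higher than with vehicle, against 16.2% and 17.2% of tested genes. With a mouse left out, 0 to 6 of the 21 were called in the first comparison, 0 of them without naïve mouse 1, naïve mouse 2 or vehicle-treated mouse 3 (edgeR), and 6 to 13 in the second. In the 12 other settings 2 to 7 were called in the first comparison, 2 on flow cell 2 alone and 7 with DESeq2, with only the groups compared or with the length and GC correction. In the second it was 5 to 12, and 5 with this correction. Among those that rose were the SRC-family kinase Lyn (2.11 ± 0.39, adjusted p = 0.0192), the kinase Syk (2.90 ± 0.70, adjusted p = 0.0349) and the exchange factor Vav1 (3.11 ± 0.56, adjusted p = 0.018), and they were named after their values were seen. Their calls were lost in 3 (Lyn), 6 (Syk) and 4 (Vav1) of the 9 fits with a mouse left out. Akt1 and Jak1, among the most abundant genes of the list, had 175 and 154 CPM on average. Neither passed between vehicle-treated and naïve mice, and Akt1 was lower with TD139 than with vehicle (−0.41 ± 0.09, adjusted p = 0.00842), a value that shrank to −0.05 and lost its call with the length and GC correction, with or without the replicate block. The same held for Mapk3, which became −0.02, and for the 2 genes called higher, Sos1 and Pik3r1, which became 0.05 and 0.02, all named after their values were seen.

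Of 16 STAT factors and negative regulators, 3 were higher and 0 lower in vehicle-treated mice, and 5 were lower and 2 higher with TD139 than with vehicle, beside the same shares of all tested genes (4.91% and 2.89%, 16.2% and 17.2%). With a mouse left out, 0 to 4 of the 16 were called in the first comparison, 0 without any one of the naïve mice (edgeR), and 2 to 7 in the 12 other settings, 7 with DESeq2 and 5 with the length and GC correction. In the second 1 to 9 were called, 1 without TD139-treated mouse 2, 2 without TD139-treated mouse 3 and 2 without vehicle-treated mouse 3. Socs3, a feedback inhibitor of cytokine receptors including that of G-CSF, went from 4.52 to 26.6 CPM on average (2.56 ± 0.50, adjusted p = 0.026) and to 4.39 CPM with TD139 (−2.60 ± 0.50, adjusted p = 0.0084). The phosphatase gene Ptpn6 also rose (1.73 ± 0.44, adjusted p = 0.0384), a call lost in 7 of the 9 fits with a mouse left out, and that of Socs3 was lost in 3. Socs3 and Ptpn6 were named after their values were seen. Stat3, the most abundant, had 0.84 ± 0.30 (adjusted p = 0.117) against naïve mice and was lower with TD139 than with vehicle (−1.09 ± 0.30, adjusted p = 0.0265), a call lost in 3 of these 9 fits. Stat5b, a main effector of GM-CSF receptors, had means of 76.2, 76.3 and 84 CPM in the 3 groups and did not pass.

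Of 28 other transcription factors of myeloid and microglial cells, 23 were tested, of which 5 were higher and 0 lower in vehicle-treated mice, and 6 were lower and 3 higher with TD139 than with vehicle, against 4.91% and 2.89%, and 16.2% and 17.2%, of all tested genes. With a mouse left out, 0 to 6 were called in the first comparison, 0 without naïve mouse 1 or naïve mouse 2 (edgeR), and 4 to 10 in the second, 4 without TD139-treated mouse 2 or 3. The 12 other settings called 3 to 9 in the first comparison, 3 with the replicate block, 8 with the length and GC correction and 9 with both. The 5 were Cebpa (2.63 ± 0.48, adjusted p = 0.0206), Cebpb (1.53 ± 0.27, adjusted p = 0.0173), Ikzf1, Maf and Irf1, named after their values were seen, and in the 9 fits with a mouse left out the call was lost in 7 for Ikzf1, 5 each for Cebpa, Maf and Irf1, and 3 for Cebpb. Cebpa and Cebpb, factors of myeloid maturation, were lower with TD139 than with vehicle (−2.27 ± 0.47, adjusted p = 0.0083, and −1.93 ± 0.27, adjusted p = 0.005). The 3 most abundant factors, Bhlhe41, Zeb2 and Mef2c, are also expressed outside myeloid cells and did not pass between vehicle-treated and naïve mice. Mef2c was higher with TD139 than with vehicle (1.07 ± 0.24, adjusted p = 0.0115), a call lost at 0.62 with the length and GC correction. Zeb2 was too (0.50 ± 0.14, adjusted p = 0.0206), a direction that turned to −0.08 after correction for transcript length and GC content, and it also exceeded naïve mice (0.88 ± 0.14, adjusted p = 0.0406). The latter call was lost in 4 of 12 other settings, where the value went down to 0.30, and in 5 of the 9 fits with a mouse left out.

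**Figure D4:**
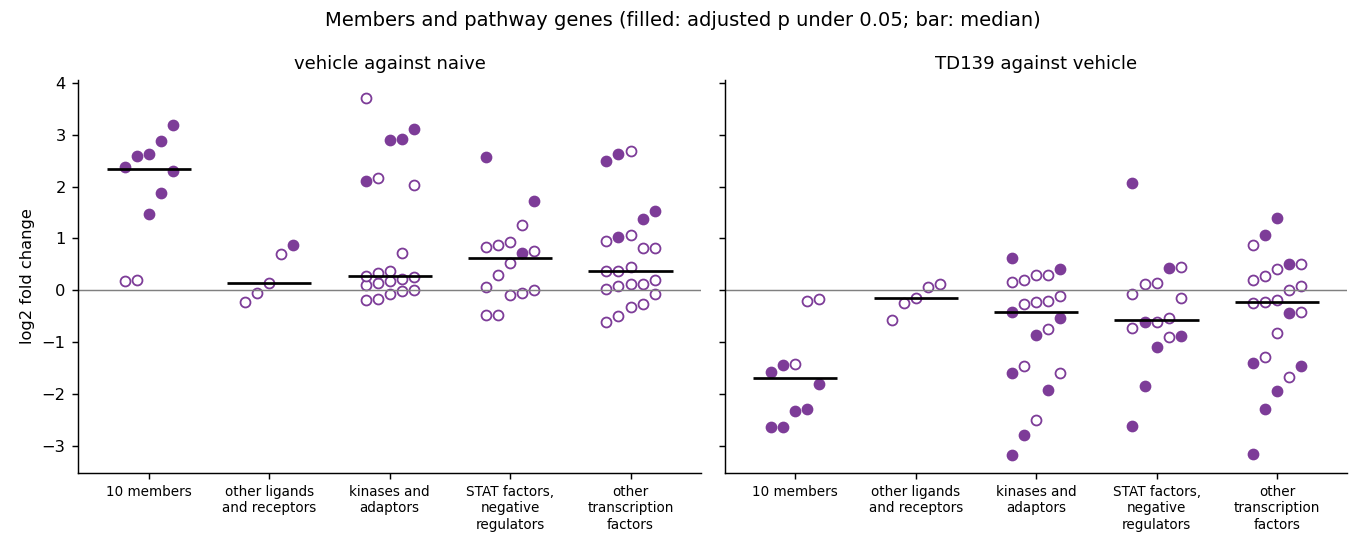
Log2 fold changes (y axis) of the 10 genes and of the tested genes of 4 related lists in 2 comparisons, 1 point per gene, with bars at the medians and filled points for an adjusted p-value under 0.05. The 10 genes have medians of 2.33 and −1.67, while the 4 lists have medians between 0.14 and 0.63 in the left panel and between −0.56 and −0.14 in the right.

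The genes with the most similar pattern over the 9 mice were found among 13093 genes of at least 50 counts per mouse on average, by the root mean square difference of log2 CPM after centring. For Csf1 they were Irf1, Tor3a and Pdpn, each at 0.13. For Il34 they were Kctd6 at 0.05 and Galnt16 and Med9 at 0.08. Csf1r was followed most closely by Cyth4 and Ctss at 0.19 and 4632428N05Rik at 0.20, and Spi1 by C1qa at 0.39, Lcp1 at 0.41 and Aif1 at 0.42. The distances were larger for Spi1, which had fewer counts than the others.

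Promoter sequences of RefSeq (GRCm38.p6) ran from 250 bases before to 50 bases after a start site. They are described for Csf1, Csf2ra, Csf2rb2, Csf3r, Irf8 and Runx1, the last 2 with 2 start sites each. A promoter of Csf1r is not reported here. The letters GAGGAA, the core that PU.1 binds, were searched on both strands and occur in 28.3% of 32851 promoters. They occur in those of Csf2ra, Csf2rb2 and Csf3r and at the second start of Runx1. The 3 receptor promoters are shown because they hold the same letters while the genes moved differently, Csf2ra by 0.18 ± 0.16 and Csf2rb2 and Csf3r by 2.62 and 2.38 on the log2 scale between vehicle-treated and naïve mice. Capitals mark GAGGAA, or TTCCTC where it is read on the other strand, as in Csf2rb2.
Csf2ra, chr19:61228369-61228668, minus strand: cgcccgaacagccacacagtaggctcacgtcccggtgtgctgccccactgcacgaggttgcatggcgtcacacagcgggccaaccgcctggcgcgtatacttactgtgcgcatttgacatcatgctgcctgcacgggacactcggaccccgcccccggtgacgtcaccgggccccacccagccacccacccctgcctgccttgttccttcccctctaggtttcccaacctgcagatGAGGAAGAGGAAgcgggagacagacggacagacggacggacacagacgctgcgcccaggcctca
Csf2rb2, chr15:78305672-78305971, minus strand: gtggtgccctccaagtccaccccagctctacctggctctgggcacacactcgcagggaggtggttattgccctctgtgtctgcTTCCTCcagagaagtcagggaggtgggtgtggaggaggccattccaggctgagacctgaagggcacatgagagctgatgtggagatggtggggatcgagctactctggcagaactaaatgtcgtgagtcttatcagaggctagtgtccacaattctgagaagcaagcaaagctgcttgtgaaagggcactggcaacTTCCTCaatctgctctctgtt
Csf3r, chr4:126024409-126024708, plus strand: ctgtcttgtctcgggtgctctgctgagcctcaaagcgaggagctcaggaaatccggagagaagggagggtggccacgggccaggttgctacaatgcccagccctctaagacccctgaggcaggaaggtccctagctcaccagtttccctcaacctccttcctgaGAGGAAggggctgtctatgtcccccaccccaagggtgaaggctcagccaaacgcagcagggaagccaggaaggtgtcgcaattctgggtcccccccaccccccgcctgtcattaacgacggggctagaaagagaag

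Counted from the first transcribed base as 0, the matches began at −14 and −8 in Csf2ra, at −167 and 29 in Csf2rb2 and at −86 in Csf3r. The RUNX letters TGTGGT, found in 16.8% of promoters, occur at the first start site of Runx1 at 28 and 36, and the ETS-IRF composite element, found in 2.72% of promoters, has a match in 0 of these windows. These matches are letters in a window and were not tested for binding.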

How the data were processed

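The authors sequenced poly(A) RNA of whole retinas with a stranded Illumina kit and deposited, for each mouse and each of 2 flow cells, whole-number counts of reads per gene symbol, made with BaseSpace RNA Express and not scaled. The submitters' processing notes name the build mm10, and the annotation is not given in the sources used here. Both runs of a mouse were added up to give 1 replicate (3 per group). Reads outside genes and ambiguous reads were left out. Reads outside genes made up 19.07 to 19.89% of a naïve library, 16.53 to 19.39% with vehicle and 21.3 to 22.77% with TD139. Ambiguous reads made up 0.374 to 0.402%, 0.417 to 0.471% and 0.303 to 0.363%. Both differed without overlap between the light-exposed groups, and their part in the results was not tested. Nothing in the labels says which mice were litter mates. The p-values of edgeR weigh group differences against the spread between these mice, which the fit moderated across genes.

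All 9 mice entered 1 fit of edgeR 4.0.16 (R 4.3.3). Genes were kept by filterByExpr, library sizes were scaled by TMM, and the quasi-likelihood F test was run with robust estimation. The standard error is the log2 fold change divided by the square root of F, and CPM used the TMM library sizes. Log2 CPM for ratios and pattern search had a prior count of 2. Steps were tested on simulated data. Lengths, positions and coding sequences came from GENCODE M21 (GRCm38), joined by symbol. Alternatives were RLE normalization, library size alone, DESeq2 1.42.0, limma voom 3.58.1, no or a stricter filter, only the groups compared, a replicate block, single flow cells, a length and GC correction with and without the block, and each mouse left out. The members and all gene lists were chosen with earlier results of these data known. Named were all members, the 3 most abundant tested genes of each related list that held any, and genes named as chosen after their values were seen. A few genes that this rule selects are left unreported. The related lists came from general knowledge of these pathways and cell types.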

Additional observations from a re-analysis of the deposited data

How the results depend on the processing

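Between vehicle-treated and naïve mice, 8 members passed in each of the 12 settings other than leaving out a mouse, the replicate block included. With a mouse left out, 0 to 8 members passed and 0 to 6 exceeded the cut-off on the fold change. Between TD139-treated and vehicle-treated mice, 6 to 8 members passed in the other settings and 4 to 8 with a mouse left out, of which 2 to 7 exceeded the cut-off. Between TD139-treated and naïve mice 0 passed in each setting. Deviations of same-numbered mice from their group means correlated at −0.259 to 0.282. With 3 mice per group this cannot settle whether replicate numbers pair the mice. With the replicate block 8, 7 and 0 members passed in the 3 comparisons. Log2 fold changes that turned were all of values that did not pass, except Zeb2 between TD139-treated and vehicle-treated mice, which became −0.08 with the length and GC correction with or without the replicate block. In the same comparison the correction gave 0.31 for Il34, also with the block, and 0.25 for Csf2ra (0.26 with the block), none of them passing for these 2 members. Between TD139-treated and naïve mice, Csf1 became −0.03 with limma voom and −0.02 on flow cell 1, Il34 −0.14 and Csf2ra −0.06 on flow cell 2, and Csf2rb 0.37 on flow cell 1. With a mouse left out, this difference ranged from −0.35 to 0.25 for Csf1, −0.06 to 0.05 for Il34, −0.27 to 0.61 for Csf1r and −0.17 to 0.12 for Csf2ra. It ranged from −0.66 to 0.06 for Csf2rb, −0.34 to 0.70 for Csf2rb2, −0.20 to 1.34 for Csf3r and −0.54 to 1.42 for Spi1. The causes were not tested. Over all genes, 775 were called between TD139-treated and naïve mice, 0 with the replicate block, 0 with the length and GC correction, 1 with only these groups and 2586 with DESeq2. The length and GC correction moved the median of all genes to −0.10 between vehicle-treated and naïve mice, where 2862 genes were called against 1185, 32.1% of them higher against 63%. Library size alone gave 77.3% higher, and DESeq2 called 2418 genes. Between TD139-treated and vehicle-treated mice the share called higher was 51.6%, 63.5% with the correction and 39.2% with library size alone. At this depth, the 5 members with 5 to 24 counts per naïve mouse had wider intervals than the others between vehicle-treated and naïve mice.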
